A study of Mus musculus with 12 samples.

Results

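The circadian clock genes measured here are 10 genes of the mammalian molecular clock and its closest outputs, namely Nr1d1, Nr1d2, Dbp, Tef, Hlf, Per1, Per2, Cry1, Clock and Bhlhe40. They were chosen by name, with earlier results of these data known, as the probe sets that the platform table pairs with exactly 1 gene symbol. All 10 were found, each with 1 probe set, among 19938 genes measured by 21789 such probe sets. Primary mouse hepatocytes (HPC) from male C57BL/6 mice were isolated with collagenase and profiled on Affymetrix Mouse Gene 1.0 ST arrays. They were plated in serum-free medium, which was renewed 4 h after seeding, and then kept in culture for another 24 h. There were 4 groups of 3 arrays each: untreated cells at 0 min, and cells exposed to 1 ng/ml recombinant human TGF-β1 for 20 min, 2 h and 4 h. The medium of all cells was exchanged 1 h before the experiment. Values are log2 signals, so a difference of 1 is a 2-fold change.

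The molecular clock is a loop of transcription factors that runs in most cells of the body, the hepatocyte included. CLOCK and its partner BMAL1 (the product of Arntl) bind E-box sequences and switch on the Per, Cry and Nr1d genes as well as Dbp, Tef and Hlf. The PER and CRY proteins then gather and inhibit CLOCK and BMAL1, while the REV-ERB proteins encoded by Nr1d1 and Nr1d2 repress Arntl and Clock through RORE sequences. In cultured cells the loop can be set by a change of serum or medium, by glucocorticoids and by cAMP signals.

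Untreated cells were taken only at 0 min. Hours in culture, hours since the medium exchange, the hour of the day and the time with TGF-β1 therefore moved together and cannot be told apart in any value below. The hour at which the mice were killed or the cells harvested was not given in the sources used here, and the cells are a whole culture rather than a sorted population. As in any bulk sample, fewer cells of a type and less RNA per cell cannot be told apart. All 8 hepatocyte markers had mean signals above 7.23, the median of all tested probe sets, and so did 4 of 10 Kupffer cell and macrophage markers, 4 of 6 endothelial, 4 of 7 stellate cell, 1 of 4 cholangiocyte and 0 of 4 lymphocyte markers. Signals of different probe sets are not on a common scale, so these counts do not give cell shares. The replicate numbers were a factor in the model behind all values unless an alternative is named, because the study's methods use such a factor. Arrays of replicate 1 deviated from their group means together. For the other numbers such deviations could not establish the pairing.

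Promoters are shown here because 3 of these genes fell together at 4 h and Per1 had the next lowest p among the members with a lower mean. RefSeq promoters (GRCm38.p6) run from 250 bases before to 50 after a start site, and the table held 12 windows for 8 of the 10 genes, with no entry for Per2 and Bhlhe40. Capitals mark matches to 5 motifs searched on both strands: the E-box CACGTG bound by CLOCK and BMAL1, the D-box TTANGTAA bound by DBP, TEF and HLF, the RORE core NNAGGTCA bound by REV-ERB and ROR proteins (the leading N bases are left in lower case), the cAMP response element (CRE) TGACGTCA, and the SMAD box GTCTAGAC. The Nr1d1 window lies at chr11:98775328-98775627 on the minus strand, that of Nr1d2 at chr14:18239057-18239356 on the minus strand, that of Dbp at chr7:45704997-45705296 on the plus strand and the first of the Per1 windows at chr11:69098699-69098998 on the plus strand.
Nr1d1: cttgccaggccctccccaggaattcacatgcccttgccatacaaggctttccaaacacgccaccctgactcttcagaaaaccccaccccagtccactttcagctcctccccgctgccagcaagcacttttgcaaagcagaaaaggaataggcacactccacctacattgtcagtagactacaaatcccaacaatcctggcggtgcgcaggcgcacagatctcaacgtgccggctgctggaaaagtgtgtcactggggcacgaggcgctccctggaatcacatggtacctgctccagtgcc
Nr1d2: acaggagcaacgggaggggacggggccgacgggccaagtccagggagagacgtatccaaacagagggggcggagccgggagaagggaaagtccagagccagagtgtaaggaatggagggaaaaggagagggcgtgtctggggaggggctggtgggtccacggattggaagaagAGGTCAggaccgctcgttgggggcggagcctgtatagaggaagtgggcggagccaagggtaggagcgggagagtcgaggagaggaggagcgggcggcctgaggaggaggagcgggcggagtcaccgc
Dbp: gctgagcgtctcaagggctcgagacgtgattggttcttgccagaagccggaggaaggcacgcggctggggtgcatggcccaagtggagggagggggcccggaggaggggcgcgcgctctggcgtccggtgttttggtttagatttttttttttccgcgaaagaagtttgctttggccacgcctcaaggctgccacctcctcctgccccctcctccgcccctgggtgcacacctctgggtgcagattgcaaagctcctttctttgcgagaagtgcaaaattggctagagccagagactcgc
Per1: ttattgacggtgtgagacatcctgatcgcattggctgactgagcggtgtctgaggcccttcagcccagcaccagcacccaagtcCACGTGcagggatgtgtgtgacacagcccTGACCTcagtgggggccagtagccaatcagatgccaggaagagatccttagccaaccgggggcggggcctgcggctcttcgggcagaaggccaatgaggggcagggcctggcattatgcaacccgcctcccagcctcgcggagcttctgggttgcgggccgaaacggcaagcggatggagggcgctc

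The Nr1d1 and Dbp windows held none of the 5 motifs. The Nr1d2 window held a RORE core that began 77 bases before the start. The first Per1 window held an E-box 166 bases before the start and, on the other strand, a RORE core at 137 bases. The second Per1 window, not printed here, held none of the 5 motifs. E-boxes were also found in the Cry1 window at 60 bases before the start and in both Tef windows, at 127 and 138 bases, while the Hlf window held a CRE at 9 bases and the third Clock window a RORE core on the other strand at 119 bases. Of all 32851 promoter windows of the same length, 7.15% held the E-box, 2.32% the D-box, 16.2% the RORE core, 1.79% the CRE and 0.213% the SMAD box. A match is a run of letters and not a measured binding site, and the windows do not reach distal sites or introns.

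At 4 h of TGF-β1, Nr1d1, Nr1d2 and Dbp were lower than at 0 min and Per2 was higher (limma, adjusted p under 0.05). The other 6 genes did not pass. This made 4 of 10 clock genes called, against 4.59% of all tested probe sets (1000 of 21789), with 3 of them lower and 1 higher, where the background was 3.02% lower and 1.57% higher. Because the genes were chosen with earlier results of these data known, this share describes them and does not test them as a group. The changes were moderate, between 1.19-fold and 1.59-fold, and 0 of 10 reached the study's single-time threshold of an adjusted p under 0.01 with an absolute log2 fold change of at least 1, which 0.0964% of probe sets passed. The differences between 4 h and 0 min had the same sign in all 3 replicates for 6 of 10 genes (35.6% of all tested probe sets). The 2 groups of arrays did not overlap for 2 of 10 genes, against 11% of all probe sets. The median log2 fold change of the 10 genes was -0.06, and that of all tested probe sets was 0.02. At 20 min and at 2 h no clock gene was called by limma, and the share of all probe sets called was 0% at both times. At an unadjusted p under 0.05 there was 1 clock gene at 20 min and there were 2 at 2 h, beside 1843 and 1369 probe sets of 21789.

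**Figure D1:**
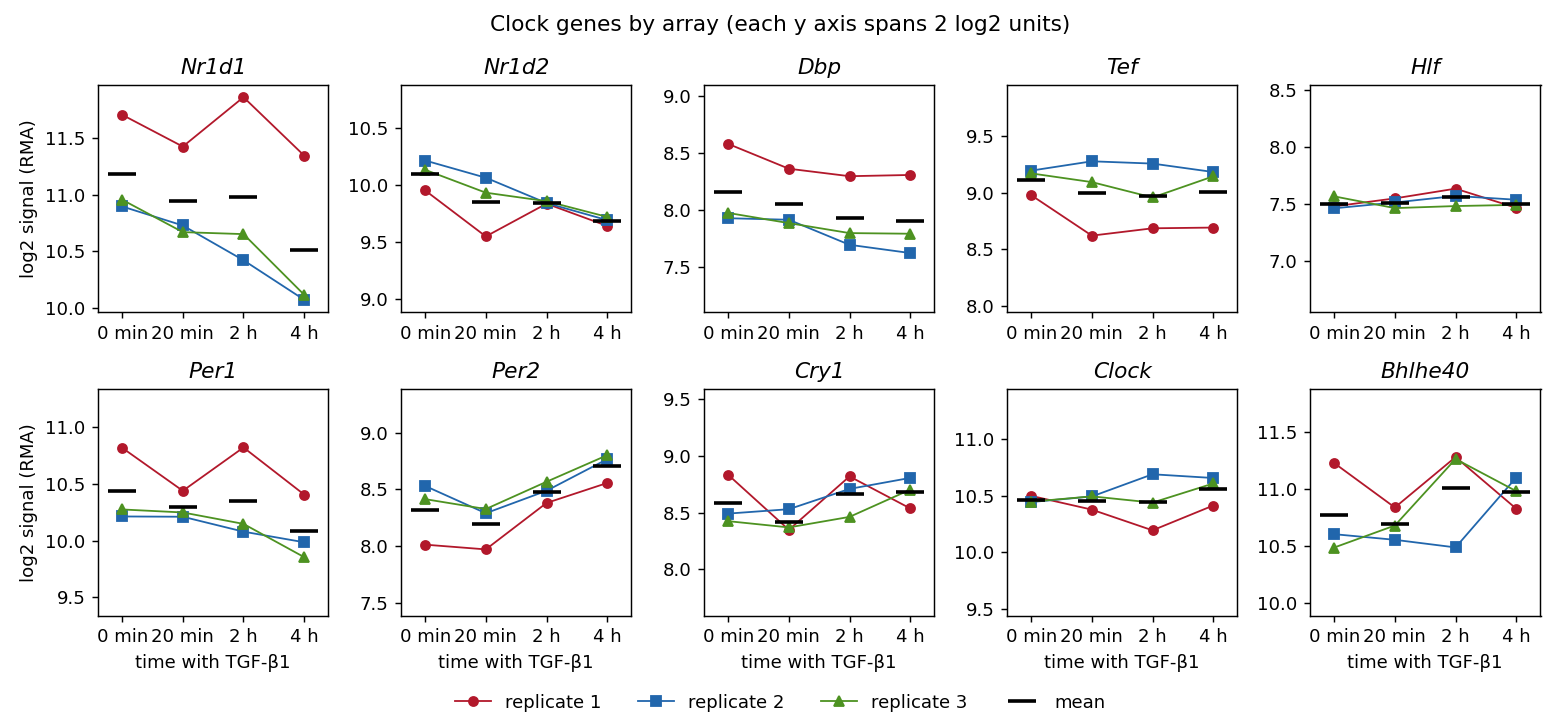
Log2 signal of each clock gene (y axis, each panel spanning 2 log2 units) on the 12 arrays, by time with TGF-β1 (x axis, 0 min being untreated). Lines join arrays of the same replicate number and black bars are group means. Nr1d1 was lower at 4 h than at 0 min in all 3 replicates while replicate 1 lay above the other two throughout, and Per2 at 4 h, 8.56 to 8.80, lay above every 0 min array, 8.01 to 8.53.

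Nr1d1 encodes REV-ERBα, a heme-binding nuclear receptor that represses Arntl and many genes of lipid and bile acid metabolism in liver. At 0 min it had log2 signals of 11.70, 10.90 and 10.95 in replicates 1, 2 and 3. At 20 min the values were 11.42, 10.73 and 10.67, at 2 h they were 11.86, 10.42 and 10.65, and at 4 h they were 11.34, 10.07 and 10.12. Every 4 h array was below the 0 min array of its own replicate, yet the groups overlapped, because replicate 1 at 4 h was above replicates 2 and 3 at 0 min. The mean was 10.51 ± 0.72 at 4 h and 11.18 ± 0.45 at 0 min (SD, n = 3 each). Within replicates the log2 difference was -0.36, -0.82 and -0.84, and the fitted log2 fold change was -0.67 (SE 0.12, adjusted p = 0.0121), or 1.59-fold lower. This was the largest change among the 10 genes, and 125 of the 21789 probe sets, that of Nr1d1 included, changed by at least as much in absolute value. The differences at 20 min (-0.24) and 2 h (-0.21) were not called, with adjusted p of 0.624 and 0.914. At 4 h Nr1d1 was also lower than at 2 h in each replicate, with differences of -0.51, -0.35 and -0.53, but that comparison did not pass (log2 fold change -0.47, adjusted p = 0.187).

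Nr1d2 encodes REV-ERBβ, the close relative of REV-ERBα with which it shares targets. Its log2 signals were 9.95, 10.22 and 10.13 at 0 min, 9.55, 10.06 and 9.93 at 20 min, 9.84, 9.84 and 9.86 at 2 h and 9.64, 9.69 and 9.72 at 4 h, in replicates 1, 2 and 3. All 3 arrays at 2 h and all 3 at 4 h were below every 0 min array. Nr1d2 averaged 9.68 ± 0.04 at 4 h and 10.10 ± 0.13 at 0 min, a log2 fold change of -0.42 (SE 0.09, adjusted p = 0.0219), or 1.34-fold lower, with replicate differences of -0.31, -0.53 and -0.41. The changes at 20 min (-0.25) and 2 h (-0.26) were similar in size to each other, and neither was called (adjusted p = 0.474 and 0.577). Unlike for Nr1d1, the 3 replicates lay close together at 2 h and at 4 h.

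Dbp, Tef and Hlf encode the PAR bZIP factors, which bind D-boxes and drive rhythmic genes of drug and hormone metabolism in the liver of mice. Dbp had log2 signals of 8.58, 7.93 and 7.97 at 0 min, 8.36, 7.91 and 7.88 at 20 min, 8.30, 7.69 and 7.79 at 2 h and 8.31, 7.62 and 7.79 at 4 h. Each 2 h and each 4 h array was below the 0 min array of its replicate, while the groups overlapped because of the high replicate 1. Dbp averaged 7.90 ± 0.36 at 4 h and 8.16 ± 0.37 at 0 min, and its log2 fold change of -0.25 (SE 0.06, adjusted p = 0.0443) was the smallest of the called changes, 1.19-fold lower. At 2 h Dbp was already at -0.23, with an unadjusted p of 0.00346, but did not pass over all probe sets (adjusted p = 0.409).

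Tef had log2 signals of 8.98, 9.19 and 9.17 at 0 min, 8.62, 9.28 and 9.09 at 20 min, 8.69, 9.26 and 8.96 at 2 h and 8.69, 9.18 and 9.14 at 4 h. Its replicate 1 was the lowest at each time, and the 4 h group overlapped the 0 min group. The log2 fold change at 4 h was -0.11 with a 95% interval of -0.29 to 0.07 (adjusted p = 0.584). Hlf had the flattest course, with every array between 7.46 and 7.64 and a log2 fold change at 4 h of -0.00 (95% interval -0.14 to 0.14, adjusted p = 0.985). Of the PAR bZIP genes, then, only Dbp was called at 4 h, and whether it differed from Tef or Hlf in its change was not tested.

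The period genes Per1 and Per2 encode repressors of CLOCK and BMAL1, and both can also be induced directly by glucocorticoids and by cAMP signals. Per2 had log2 signals of 8.01, 8.53 and 8.41 at 0 min, 7.97, 8.29 and 8.33 at 20 min, 8.38, 8.49 and 8.57 at 2 h and 8.56, 8.77 and 8.80 at 4 h. The lowest 4 h array exceeded the highest 0 min array by a small margin, and replicate 1 was the lowest at each time. Per2 averaged 8.71 ± 0.13 at 4 h and 8.32 ± 0.27 at 0 min. Its log2 fold change was 0.39 (SE 0.07, adjusted p = 0.0150), or 1.31-fold higher, with replicate differences of 0.54, 0.24 and 0.39. It was the only one of the 10 genes called over the whole time course (moderated F test, adjusted p = 0.0240), which 1.4% of probe sets passed. Against 20 min rather than 0 min, the log2 difference at 4 h was 0.51 (SE 0.07, adjusted p = 0.0124), with replicate differences of 0.58, 0.48 and 0.47. The step between 20 min and 2 h was 0.28 (adjusted p = 0.939) and that between 2 h and 4 h was 0.23 (adjusted p = 0.315), and Per2 was higher at the later time in all 3 replicates in both.

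Per1 did not pass the test at 4 h. Its log2 signals were 10.82, 10.21 and 10.27 at 0 min, 10.44, 10.21 and 10.25 at 20 min, 10.82, 10.08 and 10.15 at 2 h and 10.41, 9.99 and 9.85 at 4 h. Every 4 h array was below its own 0 min array, and the groups overlapped through replicate 1. Per1 averaged 10.08 ± 0.29 at 4 h and 10.43 ± 0.33 at 0 min, a log2 fold change of -0.35 (SE 0.09, adjusted p = 0.0575) with a 95% interval of -0.56 to -0.15 and replicate differences of -0.41, -0.23 and -0.42. The difference between the changes of Per1 and Per2 was not tested.

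Cry1 encodes a cryptochrome that inhibits CLOCK and BMAL1 together with the PER proteins. Its log2 signals were 8.83, 8.49 and 8.43 at 0 min, 8.35, 8.53 and 8.37 at 20 min, 8.82, 8.71 and 8.46 at 2 h and 8.54, 8.81 and 8.70 at 4 h. The replicates did not move together: at 4 h Cry1 was below 0 min in replicate 1 (-0.30) and above it in replicates 2 and 3 (0.31 and 0.28). The log2 fold change was 0.10, with a 95% interval of -0.14 to 0.34 (adjusted p = 0.736).

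Clock, which encodes the DNA-binding partner of BMAL1, had log2 signals of 10.50, 10.44 and 10.45 at 0 min, 10.38, 10.49 and 10.49 at 20 min, 10.19, 10.69 and 10.44 at 2 h and 10.41, 10.66 and 10.61 at 4 h. Its replicates split in the same way as those of Cry1, with a 4 h difference of -0.09 in replicate 1 and of 0.21 and 0.16 in replicates 2 and 3. The fitted log2 fold change was 0.10 (95% interval -0.10 to 0.29, adjusted p = 0.659). Bhlhe40 encodes DEC1, an E-box binding repressor that is also known to respond to TGF-β and hypoxia in several cell types. It had log2 signals of 11.23, 10.60 and 10.49 at 0 min, 10.84, 10.55 and 10.68 at 20 min, 11.28, 10.49 and 11.27 at 2 h and 10.83, 11.10 and 10.98 at 4 h. Bhlhe40 had the widest error of the 10 genes, and its log2 fold change at 4 h was 0.20 (SE 0.19, 95% interval -0.21 to 0.61, adjusted p = 0.671), from differences of -0.40, 0.50 and 0.50 in replicates 1, 2 and 3.

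**Figure D2:**
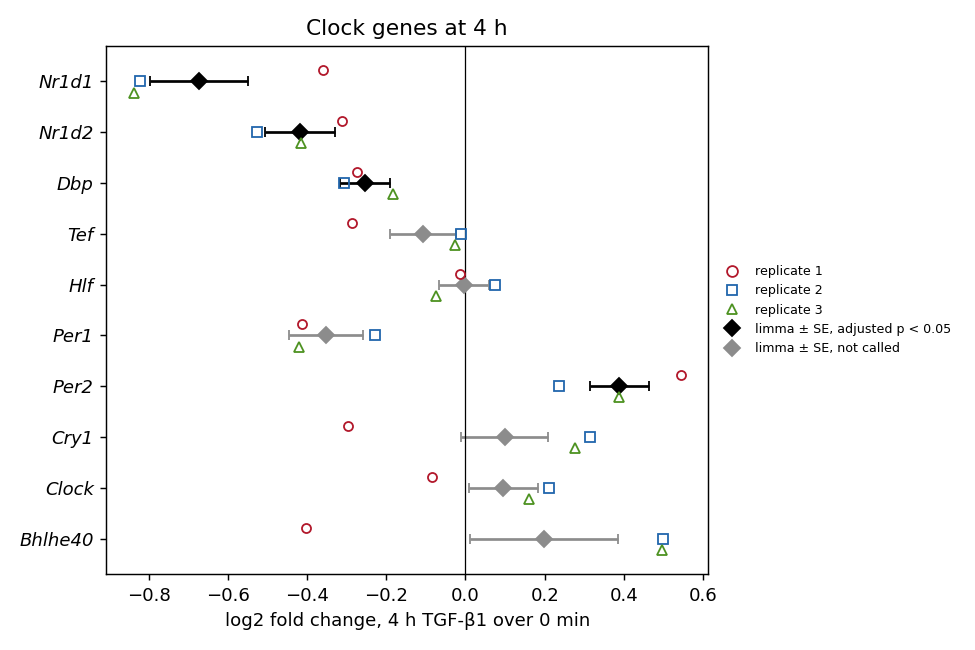
Log2 fold change at 4 h over 0 min (x axis) for the 10 clock genes (y axis). Diamonds are limma estimates with bars of 1 SE, black where the adjusted p was under 0.05, and open symbols are the differences within replicates 1, 2 and 3. The estimates ran between -0.67 for Nr1d1 and 0.39 for Per2, and replicate 1 lay on the other side of 0 from replicates 2 and 3 for Cry1, Clock and Bhlhe40.

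Among the remaining comparisons of time points, only Per2 was called, at 4 h against 20 min, where 0.62% of all probe sets passed (135 of 21789). No clock gene was called at 4 h against 2 h, where 0.078% passed, or at 2 h against 20 min, where 0% passed. At an unadjusted p under 0.05, 5 clock genes differed at 4 h against 20 min, 3 at 4 h against 2 h and 2 at 2 h against 20 min, beside 2131, 1923 and 1113 of all tested probe sets (limma). In the whole time course the adjusted p was 0.0695 for Nr1d1, 0.124 for Nr1d2, 0.145 for Dbp and 0.247 for Per1, and between 0.579 and 0.937 for Tef, Hlf, Cry1, Clock and Bhlhe40.

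**Figure D3:**
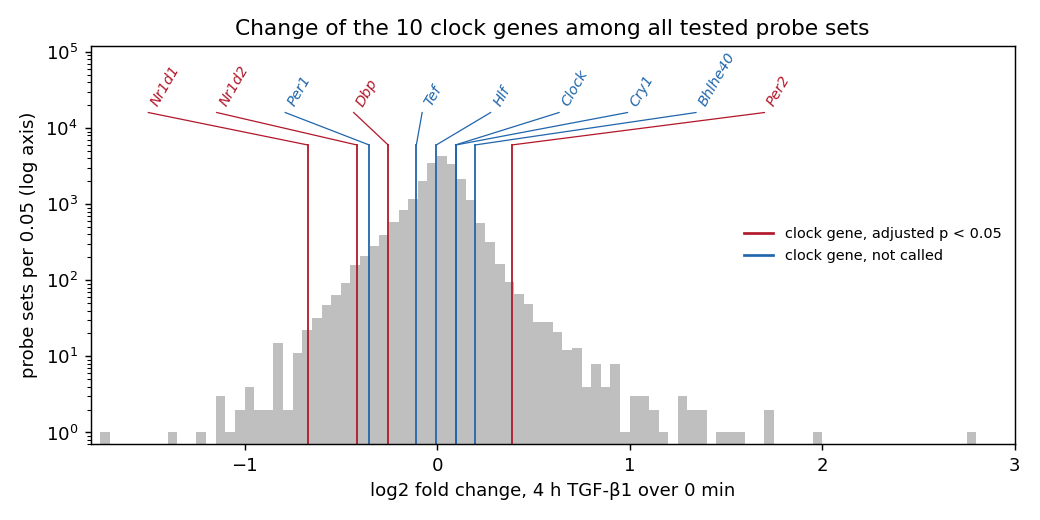
Number of tested probe sets (y axis, log scale) by log2 fold change at 4 h over 0 min (x axis, bins of 0.05), with vertical lines at the 10 clock genes, red where the adjusted p was under 0.05. Nr1d1 lay in the lower tail, and 125 of 21789 probe sets, its own included, changed by at least as much in absolute value in either direction. Tef, Hlf, Cry1 and Clock lay in the bulk.

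The calls at 4 h depended on the arrays and the model used. The share of all probe sets called under each alternative was not recorded, so the counts below cannot be set against it. With the replicate number left out of the model none of the 4 genes was called, and dropping the untreated array of replicate 1, 2 or 3 left counts of 1, 1 and 0. Without the 4 h array of replicate 1, 2 or 3 the counts were 2, 0 and 0. Leaving out all arrays of replicate 2 or of replicate 3 gave 0, whereas leaving out those of replicate 1 gave 4, with Per1 called in place of Dbp. Dbp also lost its call without any single 2 h array and without the 20 min array of replicate 3. The direction of change of Nr1d1, Nr1d2, Dbp, Per1 and Per2 at 4 h was kept in all 25 alternatives run, with fitted log2 fold changes between -0.83 and -0.59 for Nr1d1, between -0.47 and -0.36 for Nr1d2, between -0.29 and -0.21 for Dbp, between -0.42 and -0.31 for Per1 and between 0.31 and 0.47 for Per2. Nr1d1 was called in 16 of these, Nr1d2 and Per2 in 14 each, Dbp in 7 and Per1 in 6.

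Replicate 1 differed from the other replicates in level more than TGF-β1 time points differed from each other for several clock genes. Averaged over the 4 times, Nr1d1 was 1.02 log2 units higher in replicate 1 than in replicates 2 and 3, Dbp 0.56 higher and Per1 0.49 higher, and these were the highest of the 3 replicates at 4 of 4 times. Tef (-0.41), Per2 (-0.29) and Nr1d2 (-0.19) had negative offsets and were each the lowest at 4 of 4 times. Bhlhe40 (0.27), Clock (-0.16), Cry1 (0.07) and Hlf (0.02) had no fixed order. Over all tested probe sets the median absolute offset was 0.13, and the offset of Nr1d1 was larger than that of 98.1% of them. Each replicate number holds all 4 groups, and the differences within replicates are given for each gene. The paper reports a strong batch effect among its mouse HPC chips, which it adjusted for, but does not say which arrays formed a batch. Whether a replicate number was also a processing batch, and what else its arrays had in common, was not given in the sources used here.

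**Figure D4:**
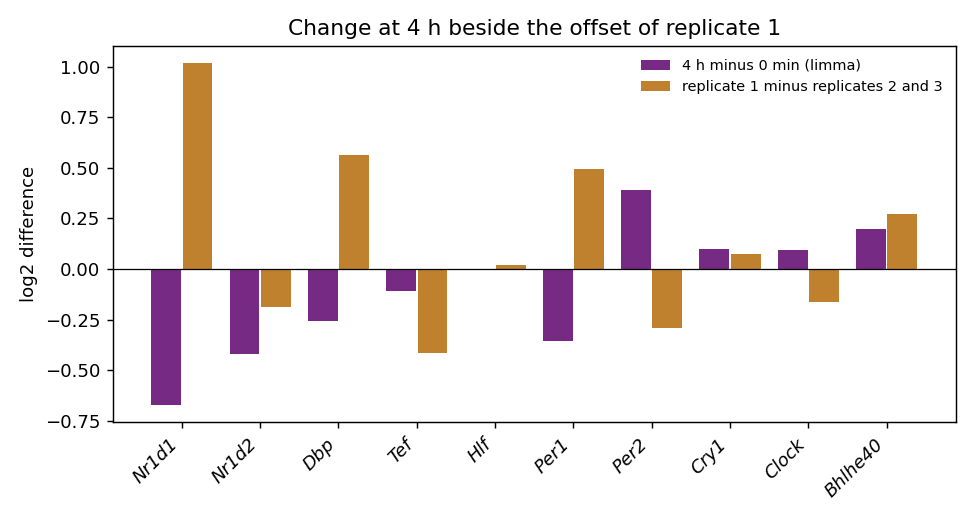
Log2 difference (y axis) for each clock gene (x axis): purple bars are the limma change at 4 h over 0 min, and brown bars are the mean of replicate 1 minus the mean of replicates 2 and 3 over the 4 times. For Nr1d1 the offset of replicate 1 was 1.02 and the change at 4 h was -0.67.

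The genes whose courses were most like those of 3 clock genes were found by Pearson correlation of the 12 values after each replicate's mean was subtracted. These correlations are descriptions without a test, since all 12 points share 4 time points and 3 replicates. Per2 was closest to Ap1g1 (r = 0.940), Tob2 (0.939) and the TGF-β type I receptor gene Tgfbr1 (0.931). Tgfbr1 itself was 0.82 higher at 4 h on the log2 scale (SE 0.10, adjusted p = 0.00282). Nr1d1 was closest to Vkorc1 (0.971), Cfb (0.968) and Tsc22d2 (0.968), and Nr1d2 to Slc6a12 (0.975), Aox1 (0.973) and Elovl5 (0.963). Among the 10 clock genes the same measure was 0.917 between Nr1d1 and Nr1d2, 0.881 between Nr1d1 and Per1, 0.847 between Nr1d2 and Per1 and 0.845 between Nr1d2 and Dbp. The lowest values were -0.722 between Nr1d1 and Clock, -0.672 between Dbp and Per2 and -0.528 between Nr1d1 and Per2.

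Of 19 other clock genes, 16 were measured by a probe set with a single symbol, and none was called at 4 h by limma. Their median log2 fold change was 0.04, with 10 above 0 and 6 below. Arntl, which encodes BMAL1 and is a REV-ERB target, had the highest value in this list, 0.37 (SE 0.17, adjusted p = 0.305), made up of -0.19 in replicate 1 and 0.66 and 0.64 in replicates 2 and 3. Ciart, a transcriptional repressor of the clock, had the lowest, at -0.55 (SE 0.16, adjusted p = 0.0898), and was below 0 in all 3 replicates (-0.35, -0.82 and -0.48). Ciart had 2 probe sets, and these values are of the one with the higher mean signal only. Nfil3, which encodes a repressor that competes with DBP for D-boxes, was at 0.30 (adjusted p = 0.147), Bhlhe41 at -0.47 (adjusted p = 0.0810), Cry2 at -0.26 (adjusted p = 0.157) and Per3 at -0.12 (adjusted p = 0.670).

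Rhythmic output genes of the liver, of which 14 of 17 were measured, included 5 that fell at 4 h and none that rose, beside the background of 3.02% lower, and their median was -0.23. This list was also chosen with earlier results of these data known, so the count is a description and not a test. Upp2, which encodes a uridine phosphorylase, averaged 8.41 ± 0.53 at 4 h and 9.00 ± 0.75 at 0 min (log2 fold change -0.59, SE 0.09, adjusted p = 0.00452). Insig2, an inhibitor of sterol regulatory protein processing and a known REV-ERBα target in mice, averaged 12.03 ± 0.49 at 4 h and 12.58 ± 0.47 at 0 min (-0.55, SE 0.09, adjusted p = 0.00691). Nr1i3, the nuclear receptor CAR and a known target of the PAR bZIP factors in mice, was at -0.32 (adjusted p = 0.0151), and Rgs16, a regulator of G protein signalling, at -0.73 (adjusted p = 0.0171). Gys2, liver glycogen synthase, was the fifth at -0.44 (adjusted p = 0.0219) and was named after its value was seen. Cyp7a1, the rate-limiting enzyme of bile acid synthesis, had a log2 fold change of -0.73 but did not pass (adjusted p = 0.0595) and was likewise named after its value was seen. Upp2 and Insig2 were also called over the whole time course (adjusted p = 0.0240 and 0.0430).

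**Figure D5:**
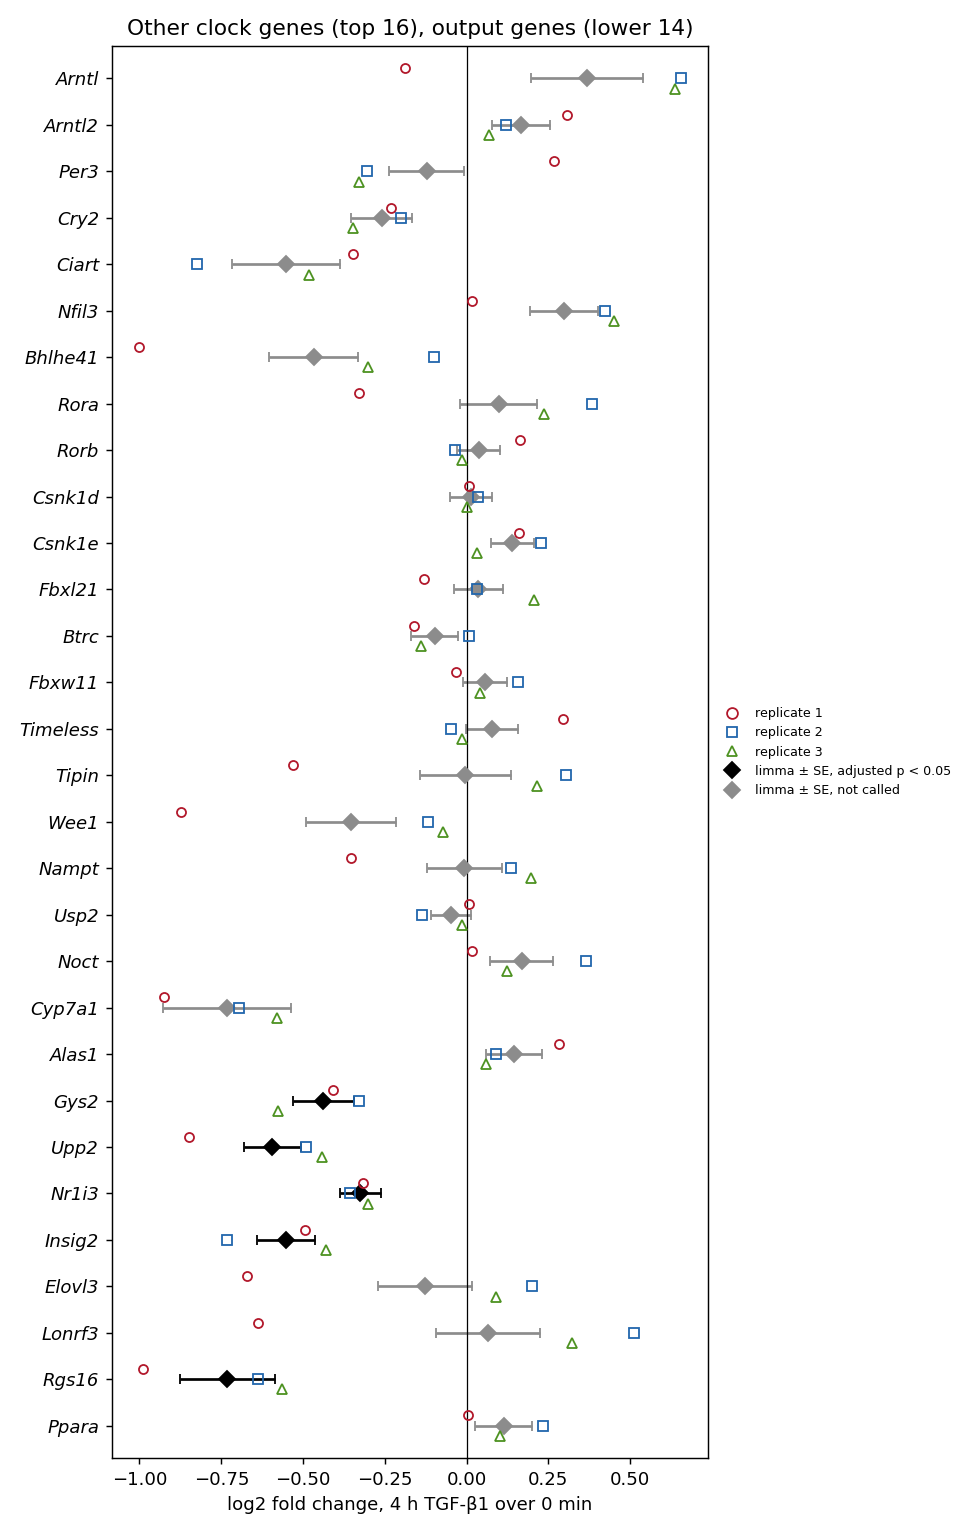
Log2 fold change at 4 h over 0 min (x axis) for 16 other clock genes and 14 rhythmic liver output genes (y axis). Diamonds are limma estimates with bars of 1 SE, black where the adjusted p was under 0.05, and open symbols are the differences within replicates. None of the 16 clock genes is black, whereas 5 output genes are, all below 0.

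Signals that can set a culture's clock were read from lists of their usual target genes, also chosen with earlier results of these data known. Of 14 glucocorticoid-induced genes, 1 rose and 3 fell at 4 h, where 1.57% of all tested probe sets were called higher and 3.02% lower, with a list median of -0.02. Sgk1, a serum and glucocorticoid regulated kinase, rose by 0.64 (SE 0.08, adjusted p = 0.00218), whereas Klf9 (-0.42, adjusted p = 0.0108), Zfp36 (-0.65, adjusted p = 0.00697) and Tat (-0.31, adjusted p = 0.0463) fell. Klf9 is a transcription factor, Zfp36 encodes an mRNA-destabilizing protein and Tat encodes tyrosine aminotransferase. Of 15 immediate early genes induced by serum or cAMP, 4 fell at 4 h and none rose, beside the same background of 3.02% lower and 1.57% higher, with a median of -0.04. These were Jun (-0.46, adjusted p = 0.00451), Egr1 (-0.51, adjusted p = 0.00624), Crem (-0.39, adjusted p = 0.0198) and Atf3 (-0.85, adjusted p = 0.00648), all transcription factors. At 2 h, 14 of the 15 had a log2 fold change below 0, as had 46.5% of all tested probe sets, with a median of -0.15 against 0.01 for all tested probe sets, and none was called. The part of these signals in the values of the clock genes was not tested.

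Markers of other liver cells moved at the same time. Of 10 Kupffer cell and macrophage markers 4 fell at 4 h (C1qb, C1qc, Adgre1 and Csf1r), where 3.02% of all tested probe sets were called lower and 4.59% in either direction, and the summed log2 level of the list was 12.00 to 12.29 at 4 h and 12.36 to 12.60 at 0 min. That sum is weighted most by Cd68, the marker with the highest mean signal of the list (11.85), which was not called (log2 fold change -0.24, limma adjusted p = 0.267). Of 6 endothelial markers 1 fell (Lyve1) and of 7 stellate cell markers 1 fell (Dcn), with summed levels of 10.50 to 11.16 at 4 h and 10.53 to 11.30 at 0 min for the first list, and of 10.01 to 10.73 at 4 h and 10.06 to 11.09 at 0 min for the second. None of the 4 cholangiocyte markers was called, although Sox9 had a log2 fold change of 1.19 (limma adjusted p = 0.0751). Their summed level was 10.75 to 11.13 at 4 h and 9.60 to 10.76 at 0 min. That sum is weighted most by Sox9, the marker with the highest mean signal of the list. The log2 fold changes of the others were 0.15 for Krt7, 0.03 for Krt19 and 0.08 for Epcam. The 4 lymphocyte markers were not called either, with a summed level of 8.27 to 8.42 at 4 h and 8.33 to 8.39 at 0 min. None of the 8 hepatocyte markers was called, and their summed level was 16.92 to 16.94 at 4 h and 16.99 in all 3 arrays at 0 min. This sum is weighted most by the brightest markers, up to a mean of 14.61 for Alb, where the highest value on any array was 15.22. At 4 h 6 of the 8 had a log2 fold change below 0 and 2 above, the lowest being Cps1 (-0.27, limma adjusted p = 0.0518). No marker is listed at 0, since the values are log2 signals with a lowest value of 3.84 on any array. The part of these cell types in the changes of the clock genes was not tested.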

How the data were processed

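RNA of 12 primary HPC cultures was measured on 1 array each. Values were deposited as log2 signals, which the authors obtained by RMA (Affymetrix Power Tools, no version given). RMA corrects background, equalizes the quantiles of the arrays and summarizes probe sets, so a change shared by most genes would be removed. The authors' own published analysis used FARMS instead and, because of a batch effect among the mouse HPC chips, ComBat. Neither is named for the deposited values, and the replicate offset is in the values used here. Array values give no counts, and 3 arrays per group limit the precision. The p-values rest on the spread left between these cultures after time point and replicate number were fitted, so level differences between replicates are not part of it. There were 0 missing values and 0 identical pairs of arrays.

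Of 35556 probe sets, 21789 had exactly 1 symbol in the platform annotation and were tested, 1621 had several and 12146 were unnamed here. Changes were computed between arrays for the same probe set, and the marker lists were also set against the median signal of all tested probe sets. Tests used limma 3.58.1 in R 4.3.3 with factors for time point and for replicate number, which are the factors of the study's methods (the fit was additive, without the interaction contrasts those methods mention, since 1 array per time and replicate leaves no residual for them; 6 residual and 5.39 prior degrees of freedom), and Benjamini-Hochberg adjustment over the 21789 probe sets in each of 6 contrasts and the moderated F test over the 3 changes against 0 min. A gene was called at an adjusted p under 0.05. The replicate numbers come from the labels. As a check of the pairing, deviations from group means correlated by 0.773 to 0.881 among arrays of replicate 1, 0.555 to 0.794 of replicate 2 and 0.644 to 0.707 of replicate 3 (6 pairs each), and by -0.812 to 0.722 among the 36 pairs of different number and group. The last range overlaps those of replicates 2 and 3, so the check sets replicate 1 apart and cannot establish the pairing of the other numbers.

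The members and gene lists were chosen with earlier results of these data known. Named beside the 10 members are up to 4 called genes of each list by lowest F test p, further genes of the clock list, and the 3 genes most like each of the 3 members with the lowest F test p. Summed marker levels are the log2 of summed linear signals. The model was tested on simulated data first. Alternatives changed the replicate block, the groups in the fit, the probe sets tested, the normalization, the variance prior, the array weights, the threshold, and left out replicates or arrays. The 1 h time point was not analysed here.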

Additional observations from a re-analysis of the deposited data

Results flagged for a closer look

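The change of Per2 against 0 min differed between 2 time points by a direct test. Its log2 difference was 0.51 between 4 h and 20 min (limma, adjusted p = 0.0124), with 0.58, 0.48 and 0.47 in replicates 1, 2 and 3. Against 0 min the values were -0.12 at 20 min and 0.39 at 4 h. None of the other 9 clock genes was called in the comparisons among 20 min, 2 h and 4 h after adjustment. With 3 arrays in a group no array could be tested as an outlier.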

How the results depend on the processing

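The main count of 4 clock genes at 4 h against 0 min became 0 with no replicate block, 0 with the replicate number as a random effect, 1 with only the groups compared in the fit, 0 with all probe sets tested and 0 at an adjusted p under 0.01, and 0 to 5 when single arrays or replicates were left out. The count of 1 at 4 h against 20 min became 0 under no replicate block, the random effect, all probe sets and the stricter threshold, 2 with array weights and 0 to 2 without single arrays or replicates. The count of 0 at 4 h against 2 h became 1 with array weights. The count of 1 in the time course became 0 under no replicate block, the random effect, all probe sets and an adjusted p under 0.01, 2 with the dimmer probe sets (mean under the median) left out, with centred arrays, with a trended and robust prior and at an adjusted p under 0.1, 4 with array weights and 0 to 3 without single arrays or replicates. The adjusted p at 4 h under the alternatives ran between 8.02e-04 and 0.996 for Nr1d1, 0.00369 and 0.362 for Nr1d2, 0.0306 and 0.996 for Dbp, 0.0111 and 0.996 for Per1 and 0.00333 and 0.662 for Per2, each lowest with array weights and highest with no replicate block. The cause of these shifts was not tested, and the share of all probe sets called under each alternative was not recorded.

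Signs turned only for changes that were never called. Hlf at 20 min was -0.0171 with centred arrays and -0.0251 with array weights, and at 4 h 0.0126 with quantile normalization. Clock at 20 min was 0.0284 with quantile normalization and 0.0126 with array weights, and Bhlhe40 at 20 min was 0.0287 with array weights. Without single arrays or replicates, the log2 changes at 20 min ran between -0.27 and 0.10 for Bhlhe40, -0.0819 and 0.0875 for Clock, -0.0261 and 0.0606 for Hlf and -0.22 and 0.00266 for Tef, those at 2 h between -0.0319 and 0.47 for Bhlhe40, -0.16 and 0.12 for Clock and -0.0128 and 0.21 for Cry1, and those at 4 h between -0.00649 and 0.50 for Bhlhe40, -0.00931 and 0.30 for Cry1 and -0.0439 and 0.05003 for Hlf. No other sign turned. With 3 arrays in a group, changes the size of that of Dbp lie close to the threshold.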
